A study of Mus musculus with 6 samples.

Results

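The 10 genes described here encode the RING, PCGF, RYBP and L3MBTL2 subunits of Polycomb repressive complex 1 (PRC1): Rnf2, Ring1, Bmi1, Pcgf1, Pcgf2, Pcgf3, Pcgf5, Pcgf6, Rybp and L3mbtl2. They were chosen by name, and all 10 were found among the 37620 gene rows of the deposited table. RNA came from granulocyte-macrophage progenitors (GMPs), bone marrow cells that give rise to granulocytes and monocytes, sorted from C57BL/6 mice. The knockout-labelled group held 3 libraries from Bap1 f/f mice that carried MX1+ Cre, a recombinase driven by the interferon-responsive Mx1 promoter, which polyI:polyC switches on. The control group held 3 libraries from Bap1 f/f mice without Cre. Both groups received polyI:polyC, so both met the interferon stimulus, whereas Cre was present in the knockout-labelled group alone and its effect cannot be told apart from that of Bap1 deletion. Per the sample labels, mice of both groups were 65 days old with polyI:polyC given at 42 days, although the design text puts the treatment earlier in life. Nothing in the labels says whether each library came from its own animal, so p-values measure the spread between these libraries, which may be technical in part.

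PRC1 is a ubiquitin ligase that places a single ubiquitin on histone H2A, and BAP1 is a nuclear deubiquitinase that takes it off. The catalytic core is a RING protein, RING1B (Rnf2) or RING1A (Ring1), bound to a PCGF protein. The PCGF protein decides which complex forms: BMI1 and PCGF2 (MEL18) build the canonical complexes, which also hold a CBX protein that reads the PRC2 mark, while PCGF1, PCGF3, PCGF5 and PCGF6 build variant complexes that contain RYBP or its paralogue YAF2. In blood, BMI1 is known for sustaining the self-renewal of stem cells.

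The starts of 3 of these genes are shown because they set the catalytic pair beside the single PCGF gene that was called as changed. Each is the RefSeq sequence from 250 bases before to 50 bases after the gene start on build GRCm38.p6, 5′ to 3′ on the gene's strand: chr1:151500942-151501241 (minus strand) for Rnf2, chr17:34024631-34024930 (minus strand) for Ring1 and chr19:36348079-36348378 (plus strand) for Pcgf5, the most upstream of its 3 listed starts. Capitals mark every match on either strand to GGGCGG (SP/KLF) and CCAAT (NF-Y).
Rnf2: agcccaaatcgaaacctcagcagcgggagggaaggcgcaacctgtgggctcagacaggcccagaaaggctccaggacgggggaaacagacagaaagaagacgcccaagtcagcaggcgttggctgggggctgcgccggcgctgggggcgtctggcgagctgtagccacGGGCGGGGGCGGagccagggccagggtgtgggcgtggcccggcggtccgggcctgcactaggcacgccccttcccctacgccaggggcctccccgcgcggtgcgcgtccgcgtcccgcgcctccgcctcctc
Ring1: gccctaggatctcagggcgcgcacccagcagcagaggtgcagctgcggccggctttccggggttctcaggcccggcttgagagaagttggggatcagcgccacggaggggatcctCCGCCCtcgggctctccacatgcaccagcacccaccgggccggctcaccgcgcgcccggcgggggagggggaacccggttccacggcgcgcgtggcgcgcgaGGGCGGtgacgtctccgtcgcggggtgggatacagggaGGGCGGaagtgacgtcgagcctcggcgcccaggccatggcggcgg
Pcgf5: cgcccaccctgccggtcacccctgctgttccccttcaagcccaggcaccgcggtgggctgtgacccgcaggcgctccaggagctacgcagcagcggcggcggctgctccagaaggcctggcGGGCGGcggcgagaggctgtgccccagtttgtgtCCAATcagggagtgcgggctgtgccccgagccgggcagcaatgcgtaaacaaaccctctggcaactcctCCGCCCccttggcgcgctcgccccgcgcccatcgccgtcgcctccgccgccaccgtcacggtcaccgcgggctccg
All of these starts were rich in CpG, with 30 CpG dinucleotides for Rnf2, 37 for Ring1 and 34 for Pcgf5, against a median of 7 over the 32851 promoters of the table. GGGCGG, which 35.7% of those promoters hold, occurred 2 times in Rnf2, 3 times in Ring1 and 2 times in Pcgf5. CCAAT, held by 37.4%, occurred 1 time in Pcgf5. The ETS motif CCGGAAG, the E-box motif CACGTG, the E2F motif GCGGGAA, the TATA box motif TATAAA and the NRF1 motif were also searched on both strands. They had no match in the 3 printed windows, and over all promoters their shares were 8.86%, 7.15%, 4.60%, 13.6% and 0.971% in that order. Neighbouring GGGCGG matches abut in Rnf2. In all, 8 of the 10 genes had an entry. Among the starts not printed, the E-box letters were matched 1 time each in Bmi1 and Pcgf2. The E2F letters were matched 1 time at start 3 of Pcgf5, counted from the most upstream. Starts 2 and 3 of Pcgf5 held 5 and 35 CpG dinucleotides. No binding or methylation was measured here, so these sequences describe the genes only.

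The knockout-labelled libraries held 19464353 to 24085250 gene reads and the control libraries 24125905 to 25901725. Values below are normalized counts, the deposited gene counts divided by a size factor per library, so that 1 read is worth 0.8885 to 1.1419. The Bap1 count was higher in the libraries labelled knockout, at 2671, 3309 and 2968, against 1343, 998.5 and 1076 in control libraries (2.63-fold, limma adjusted p = 6.07e-05). This goes against the label. The count is summed over the gene and cannot show whether exons are missing, so directions here follow the labels of the libraries. Over all tested genes 26.8% were called in the test described below, 11.8% as higher and 15.0% as lower. Of the 8 genes of GMPs and of the sort gate 3 were called higher and 2 lower. Mpo stood at 513000 to 758800 in knockout-labelled and 488600 to 523600 in control libraries, while Cd34, a gate gene, was lower in knockout-labelled libraries (3682 to 4113, against 11160 to 11700). Marker genes of other cells moved between the groups as well. All 6 monocyte and all 6 dendritic cell markers were called lower in knockout-labelled libraries, with summed normalized counts of 4990 to 7600 against 25900 to 26800 and of 1690 to 6570 against 16200 to 28200. Of 6 B lymphoid markers 5 were tested and all 5 called lower (sums of 1010 to 1310 against 1980 to 2340), and Vpreb3 and Pax5 were at 0 in every knockout-labelled library. Of 6 mast cell and basophil markers 4 were called lower and 1 higher (sums of 14700 to 23700 against 43200 to 54100). Of 6 erythroid markers 3 were called higher and 0 lower (5340 to 14000 against 4400 to 8240). Of the 6 T and NK markers 4 were tested, of which 1 was called higher and 3 lower. Sums over the 6 were 36400 to 56000 against 28300 to 30400, of which Nkg7 made up nearly all. Of 5 megakaryocyte markers 1 was called higher and 1 lower, with sums of 1170 to 3190 against 1800 to 3230, and of 6 mature neutrophil markers 1 was called higher, with sums of 110000 to 309000 against 138000 to 189000. The part of these shifts in the results below was not tested, and in sorted bulk cells fewer cells of a type and less RNA per cell cannot be told apart.

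Among the 10 genes, 1 fell and 1 rose in the knockout-labelled libraries. Rnf2, the main RING gene of these cells, fell, and Pcgf5, a PCGF gene of variant complexes, rose by a narrow margin. After a correction for GC content and length, described below, the Rnf2 call was lost and the Pcgf5 call was kept. The test was limma's moderated test on log2(normalized count + 1), Benjamini-Hochberg adjusted over all 14391 genes with a mean of at least 10, at an adjusted p of 0.05. Of the 10 genes 9 were tested, since Pcgf2 lay under that minimum. The share called, 2 of 9 or 22.2%, was near the background: 26.8% of all tested genes were called, 11.8% as higher and 15.0% as lower. Groups did not overlap for 3 of the 9, or 33.3%, against 42.9% of all tested genes (1 higher against 20.4% of all tested genes, and 2 lower against 22.5%). Both shares were below those of all tested genes, and the results that follow are those of single genes. Their median log2 fold change was -0.02, against 0.01 over all tested genes.

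**Figure D1:**
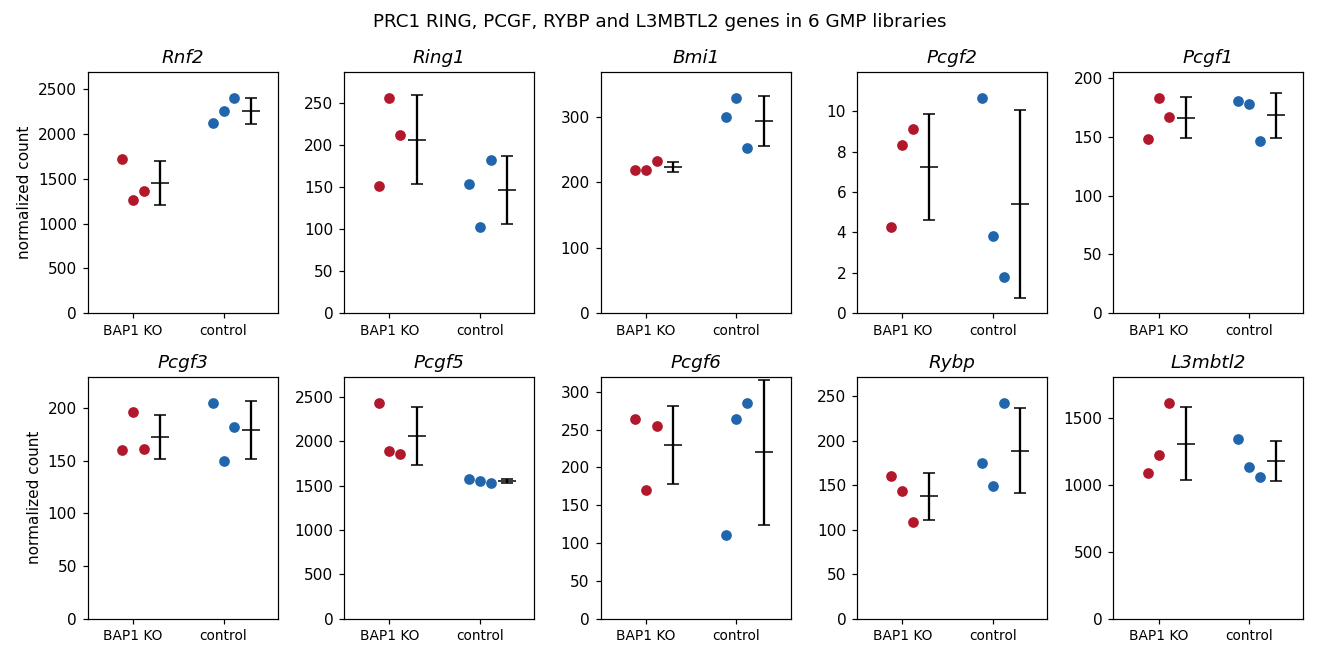
Normalized counts (y axes, each from 0) of the 10 genes in the 3 libraries labelled BAP1 KO (red, left) and the 3 control libraries (blue, right), with the mean and SD of each group in black. Rnf2 and Bmi1 lie lower and Pcgf5 higher in every library labelled BAP1 KO than in any control library, while the groups of the other 7 genes overlap.

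Rnf2 (ENSMUSG00000026484) encodes RING1B, the RING protein that does most of the H2A ubiquitination in the mouse cells where this has been studied. It stood at 1725, 1267 and 1369 normalized counts in knockout-labelled libraries, against 2118, 2252 and 2405 in control libraries, or 1454 ± 240.3 against 2258 ± 143.4 (SD, n = 3 each). Every knockout-labelled library was below every control library, and replicate 1 was the closest to control. The log2 fold change was -0.65 (SE 0.14, limma adjusted p = 0.00579), 1.56-fold lower. The call was kept without any 1 library, with limma adjusted p between 0.00169 and 0.0378. Over all genes, however, the group difference ran with the GC content of the transcript, with a median log2 fold change of -0.18 in the decile of lowest GC and 0.24 in the highest. The Rnf2 transcript has 39.5% GC, and only 4.76% of tested genes have less. After correction for GC content and length its log2 fold change was -0.26 and the call was lost (limma adjusted p = 0.0732). In the GRCm38 annotation 158 exonic bases of Rnf2 are shared with Trmt1l on the opposite strand. Trmt1l was lower too (347 ± 41.6 against 703.5 ± 50.2, SD, n = 3, log2 fold change -1.02, limma adjusted p = 0.00102), and no source at hand says if reads were counted by strand.

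Ring1 (ENSMUSG00000024325) encodes RING1A, the paralogue that can take the place of RING1B. Its normalized counts were 151.5, 256.1 and 211.3 in knockout-labelled libraries, against 153.7, 102.2 and 181.8 in control libraries. The groups overlapped, since replicate 1 of the knockout-labelled group lay within the control range. The log2 fold change was 0.50 with a 95% interval of -0.12 to 1.13 (limma adjusted p = 0.219), which spans both no change and a level up to 2.19-fold higher. Ring1 has a GC-rich transcript of 56.9% GC, and the median log2 fold change of its GC decile was 0.20. After the GC and length correction Ring1 was at 0.35 (adjusted p = 0.342).

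**Figure D2:**
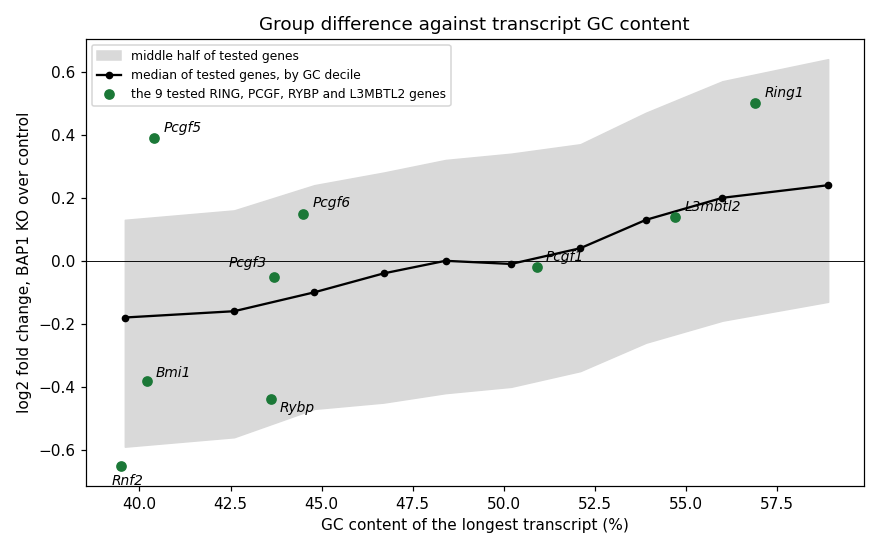
The log2 fold change of libraries labelled BAP1 KO over control (y) against the GC content of the longest annotated transcript (x, %): the black line joins the medians of the GC deciles of tested genes, the grey band spans the 25th to the 75th percentile, and green points are the 9 tested genes. The line climbs from -0.18 to 0.24, and Pcgf5 at 40.4% GC stands above the band while Rnf2 at 39.5% stands below it.

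Of the canonical PCGF genes, Bmi1 (ENSMUSG00000026739) was read at 219.7, 218.6 and 233.0 normalized counts in knockout-labelled libraries, against 299.4, 329.6 and 253.1 in control libraries. The groups did not overlap, but the gap between the nearest libraries was small and Bmi1 was not called (log2 fold change -0.38, 95% interval -0.81 to 0.04, limma adjusted p = 0.168). Its transcript is GC-poor (40.2% GC), and after the GC and length correction its log2 fold change was -0.01. Pcgf2 (ENSMUSG00000018537), the paralogue of Bmi1, was barely read, with 4, 8 and 8 reads in knockout-labelled libraries and 12, 4 and 2 in control libraries. It did not enter the test, and at this depth no difference between the groups was detectable. With no minimum beyond 1 read it had a log2 fold change of 0.56 (limma adjusted p = 0.662).

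Pcgf5 (ENSMUSG00000024805), whose protein with PCGF3 builds variant complexes that contain AUTS2 or its relatives and casein kinase 2, was the most read PCGF gene. It stood at 2433, 1889 and 1852 normalized counts in knockout-labelled libraries, against 1575, 1555 and 1533 in control libraries, or 2058 ± 325.4 against 1554 ± 21.1 (SD, n = 3 each). All knockout-labelled libraries lay above the tight control group, and replicate 1 was highest. The log2 fold change was 0.39 (SE 0.13, limma adjusted p = 0.0492), 1.31-fold higher. The call sat at the threshold: it was lost without knockout-labelled replicate 1 (log2 fold change 0.27, adjusted p = 0.0995) or 2 (0.0531) and without control replicate 1 (0.112), 2 (0.133) or 3 (0.144). Unlike Rnf2 and Bmi1, Pcgf5 ran against the GC trend. Its transcript has 40.4% GC, in the decile whose median log2 fold change was -0.18, and after the GC and length correction its log2 fold change was 0.74 (limma adjusted p = 0.000321). The parts of GC content and of transcript length in this correction, here and for the other genes, were not separated.

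Pcgf3 (ENSMUSG00000033623), the paralogue of Pcgf5, had 160.0, 196.8 and 161.0 normalized counts in knockout-labelled libraries, against 205.2, 150.0 and 182.7 in control libraries. The ranges lay over each other (log2 fold change -0.05, 95% interval -0.55 to 0.45, limma adjusted p = 0.896), and after the GC and length correction the log2 fold change was 0.22 (limma adjusted p = 0.514). Pcgf1 (ENSMUSG00000069678), which pairs with KDM2B and BCOR in a complex that binds unmethylated CpG islands, had 148.3, 183.2 and 166.7 against 180.4, 177.7 and 146.2. It too did not separate the groups (log2 fold change -0.02, 95% interval -0.51 to 0.48, adjusted p = 0.968). The upper ends of these intervals are folds of 1.37 for Pcgf3 and 1.39 for Pcgf1.

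Pcgf6 (ENSMUSG00000025050) and L3mbtl2 (ENSMUSG00000022394) belong to the same variant complex, which holds MGA, MAX and E2F6 and is known for silencing germ cell genes. Pcgf6 had 264.5, 169.7 and 254.6 normalized counts in knockout-labelled libraries, against 110.2, 263.7 and 285.2 in control libraries. Control replicate 1 was the lowest of all 6 libraries, and the groups overlapped (log2 fold change 0.15, 95% interval -0.60 to 0.91, limma adjusted p = 0.777). Without that library the sign turned (-0.28, limma adjusted p = 0.502), and after the GC and length correction the log2 fold change was 0.47 (limma adjusted p = 0.313). L3mbtl2, which encodes an MBT domain protein, had 1089, 1220 and 1610 in knockout-labelled libraries, against 1344, 1132 and 1054 in control libraries. Replicate 3 of the knockout-labelled group was highest, the ranges overlapped, and the log2 fold change was 0.14 (95% interval -0.23 to 0.50, limma adjusted p = 0.575). Without that library it was -0.02, and after the GC and length correction 0.07. L3mbtl2 shares 1023 exonic bases with Chadl on the opposite strand in the GRCm38 annotation, and whether reads from these bases were told apart is not known, since the strand setting is not.

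Rybp (ENSMUSG00000072872) encodes a subunit that marks variant complexes and raises RING1B activity. Its normalized counts were 160.0, 143.7 and 108.5 in knockout-labelled libraries, against 175.0, 149.1 and 242.4 in control libraries. The knockout-labelled mean was lower, but the groups overlapped (log2 fold change -0.44, 95% interval -1.03 to 0.14, limma adjusted p = 0.243). After the GC and length correction Rybp was at -0.13 (adjusted p = 0.737).

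To compare levels between genes, normalized counts were divided by the length of the merged annotated exons in kb. These lengths are from a GRCm38 annotation, whereas the processing notes name mm9 and NCBIM37, so they may differ from the exons counted. On this scale Rnf2 was the highest of the 10 genes in both groups, at 352 ± 58.2 per kb in knockout-labelled and 547 ± 34.8 per kb in control libraries (SD, n = 3 each). L3mbtl2 followed at 220 ± 45.6 and 198 ± 25.2 per kb, then Pcgf5 at 163 ± 25.8 and 123 ± 1.67 and Pcgf1 at 101 ± 10.6 and 102 ± 11.5. Ring1, Bmi1, Pcgf6 and Rybp formed a middle group between 21.9 and 83.0 per kb in single libraries, Pcgf3 lay at 15.7 to 21.5, and Pcgf2 came last at 0.506 to 3.02. In knockout-labelled libraries the neighbours L3mbtl2 and Pcgf5, and Ring1 and Bmi1, overlapped in range. In control libraries Ring1 and Pcgf6, and Pcgf6 and Rybp, did. With the length of the longest transcript in place of merged exons, Pcgf5 came level with L3mbtl2 (319 ± 50.5 and 281 ± 58.3 per kb in knockout-labelled libraries, 241 ± 3.27 and 253 ± 32.3 in control libraries), and Rnf2 stayed highest and Pcgf2 lowest.

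**Figure D3:**
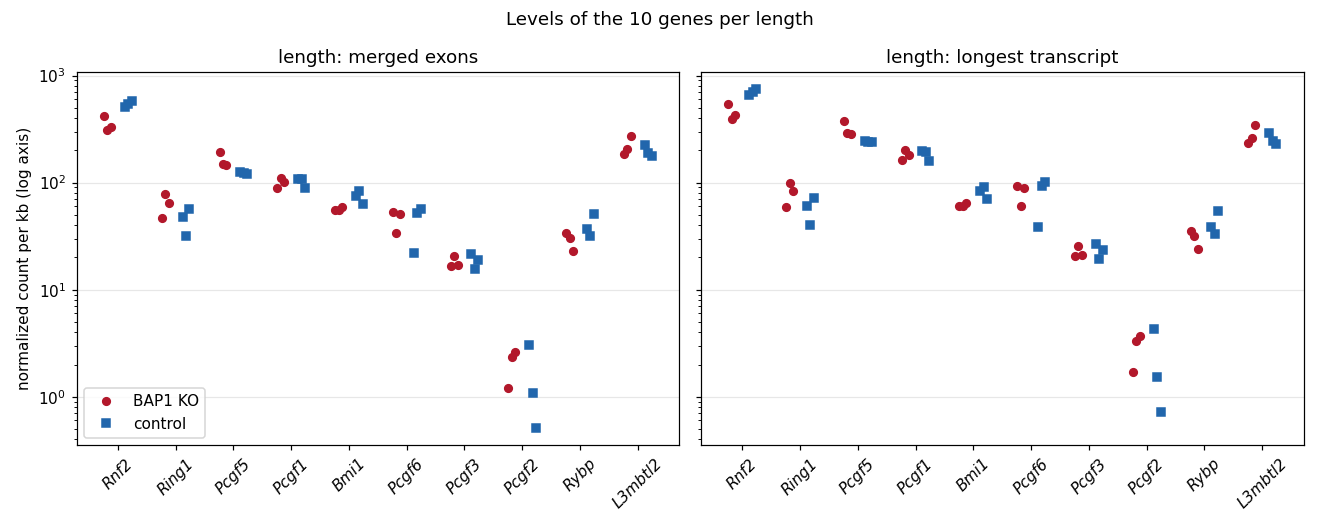
Normalized counts per kb (log axis) of the 10 genes in each library labelled BAP1 KO (red circles) and control (blue squares), divided by merged exon length (left panel) or the length of the longest transcript (right panel). Rnf2 is highest and Pcgf2 lowest in both groups and with both lengths.

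The makeup of each subunit family was then read as shares of the family's summed level per kb of merged exons. Rnf2 made up 89.9%, 79.5% and 83.6% of the RING sum in knockout-labelled libraries, against 91.5%, 94.5% and 91.2% in control libraries. The rest was Ring1, whose share was thus higher in each knockout-labelled library than in any control library. Shares and sums in this paragraph were not corrected for GC content, in which the transcripts of Rnf2 (39.5%) and Ring1 (56.9%) differ. The RING sum itself was 465, 386 and 397 per kb in knockout-labelled libraries, against 561, 577 and 639 in control libraries. For the PCGF genes the sum was 408, 372 and 377 per kb against 356, 383 and 350, with overlapping ranges. Within it Pcgf5 took 39.0 to 47.2% in knockout-labelled and 32.1 to 35.0% in control libraries, Bmi1 13.5 to 15.6% and 18.2 to 21.7%, and Pcgf1 22.0 to 29.8% and 25.3 to 30.7%. Pcgf6 held 9.06 to 13.5% and 6.16 to 16.2%, Pcgf3 4.10 to 5.54% and 4.10 to 6.04%, and Pcgf2 under 1% in every library. The shares of Pcgf5 and Bmi1 did not overlap between the groups, and no test was made of them. With the length of the longest transcript the share of Bmi1 was 8.54 to 10.0% in knockout-labelled and 11.9 to 14.3% in control libraries, and that of Pcgf5 44.3 to 52.7% and 37.7 to 41.2%, again with no overlap. Shares of RNA are not shares of protein or of assembled complexes.

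Ratios of 2 genes within a library were compared for 5 pairs by an exact permutation test, after 1 was added to each normalized count. With this addition the size factor nearly cancels for well-read genes but not for Pcgf2. Per kb, Rnf2 was 8.89, 3.88 and 5.07 times Ring1 in knockout-labelled libraries, against 10.8, 17.1 and 10.3 times in control libraries. The log2 ratio averaged 2.48 ± 0.61 and 3.63 ± 0.41 (SD, n = 3 each), a difference of -1.15, with no overlap between the groups (exact permutation p = 0.1, two-sided, the smallest that 3 against 3 allows; 0.333 adjusted over the 5 pairs). After the GC and length correction the difference was -0.61 and the groups still did not overlap (exact p = 0.1). No other pair separated the groups. The log2 ratio of Pcgf3 to Pcgf5 averaged -3.16 ± 0.33 and -2.72 ± 0.22 (exact permutation p = 0.2, n = 3 each), that of Bmi1 to Pcgf2, which rests on the few Pcgf2 reads, 4.65 ± 0.49 and 5.59 ± 0.96 (exact p = 0.2, n = 3 each). The difference of the Bmi1 to Pcgf2 pair was -0.94, and -0.72 with 4 added in place of 1. That of Rybp to its paralogue Yaf2 averaged -3.82 ± 0.04 and -3.56 ± 0.25 (exact p = 0.4, n = 3 each), and that of Pcgf1 to Pcgf6 1.17 ± 0.49 and 1.33 ± 0.87 (exact p = 0.8, n = 3 each). Yaf2 was the more abundant of its pair in all 6 libraries, with Rybp at 0.0697 to 0.0971 of the Yaf2 level per kb.

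**Figure D4:**
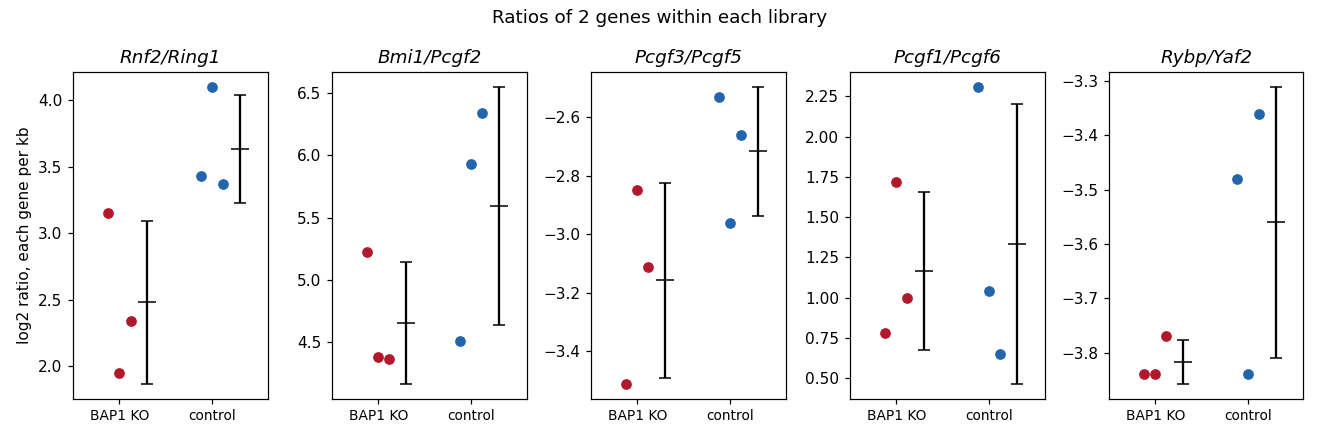
Log2 ratio of 2 genes within each library, each gene per kb of merged exons (y axes differ between panels and do not start at 0), for libraries labelled BAP1 KO (red, left) and control (blue, right), with mean and SD in black. The Rnf2 to Ring1 ratio lies lower in all 3 libraries labelled BAP1 KO (1.95 to 3.15) than in the control libraries (3.37 to 4.10), and the other pairs overlap.

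The partner genes of PRC1 and the enzymes and readers of its mark were counted in the same fit. Of 40 such genes, all tested, 2 were called higher and 4 lower, with a median log2 fold change of -0.05. That is 15.0% called, below the 26.8% of all tested genes. Of the 6 calls 4 fell on canonical partners: of 9 CBX, PHC and SCMH1 genes 1 rose and 3 fell. Their share called was 44.4%, against 26.8% of all tested genes. Phc1, a Polyhomeotic subunit whose SAM domain lets complexes join, stood at 45.9, 80.2 and 46.8 normalized counts against 117.3, 123.3 and 114.1 (log2 fold change -1.07, limma adjusted p = 0.0273). Its paralogue Phc3 was at 124.8, 156.2 and 170.1 against 217.7, 310.5 and 226.4 (-0.73, limma adjusted p = 0.0397). The Phc1 call was lost without any 1 library except knockout-labelled replicate 2 (0.0622 to 0.0939), and the Phc3 call without any 1 except knockout-labelled replicate 3 (0.0611 to 0.176) and after the GC and length correction (0.111). Cbx6 and Cbx7 encode chromobox subunits, which read the PRC2 mark. Cbx6 fell, at 114.1, 155.1 and 250.1 against 381.2, 346.8 and 277.2 (log2 fold change -1.01, limma adjusted p = 0.0206), and the call was lost without any 1 library except knockout-labelled replicate 3 and control replicate 3 (0.0559 to 0.0774). Cbx7 rose, at 56.5, 59.4 and 125.6 against 24.0, 21.0 and 30.3 (log2 fold change 1.56, limma adjusted p = 0.0184). Its call was lost without knockout-labelled replicate 3 (0.0717) or control replicate 2 (0.0637).

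Of the partners of the variant complexes none was called in this fit, against 26.8% of all tested genes. Where calls fall depends on the fit. Over all 40 genes the count called higher was 2 here, but 4 with DESeq2 and 7 after the GC and length correction. Those added calls were not broken down by complex. Over the 5 partners of PCGF1 the lowest p belonged to Bcorl1, a BCOR-like corepressor (log2 fold change -0.95, limma adjusted p = 0.126), while Kdm2b, with Bcor named after their values were seen, was at 615.4 ± 48.0 against 631.9 ± 28.7 normalized counts and Bcor at 376.5 ± 43.3 against 392.5 ± 42.7 (SD, n = 3 each). Over the 7 partners of PCGF3 and PCGF5 it was Csnk2a1, a catalytic subunit of casein kinase 2 (0.38, adjusted p = 0.117), and over the 8 partners of PCGF6 it was Mga, the DNA-binding scaffold of that complex (-0.41, adjusted p = 0.0717). Mga stood at 889.6, 770.5 and 1045 in knockout-labelled libraries, against 1067, 1157 and 1374 in control libraries, with no overlap.

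Of 6 genes for erasers of the H2A mark, Bap1 was called higher, as given above, and Usp16, a deubiquitinase of H2A, was called lower. Usp16 had 1348, 1082 and 991.2 normalized counts in knockout-labelled libraries, against 1539, 1441 and 1616 in control libraries (log2 fold change -0.44, limma adjusted p = 0.0424). After the GC and length correction it was at -0.04 (adjusted p = 0.804), and its call was also lost without any 1 library except knockout-labelled replicate 1 (0.0879 to 0.152). Mysm1, another H2A deubiquitinase, named after its values were seen, had 1763, 1159 and 1772 against 1235, 1045 and 1038 and was not called (0.48, adjusted p = 0.0623). Of 4 readers of the mark (Jarid2, Aebp2, Dnajc2 and Rsf1) none was called, the lowest p being that of Aebp2, a PRC2 accessory subunit (-0.22, adjusted p = 0.363).

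**Figure D5:**
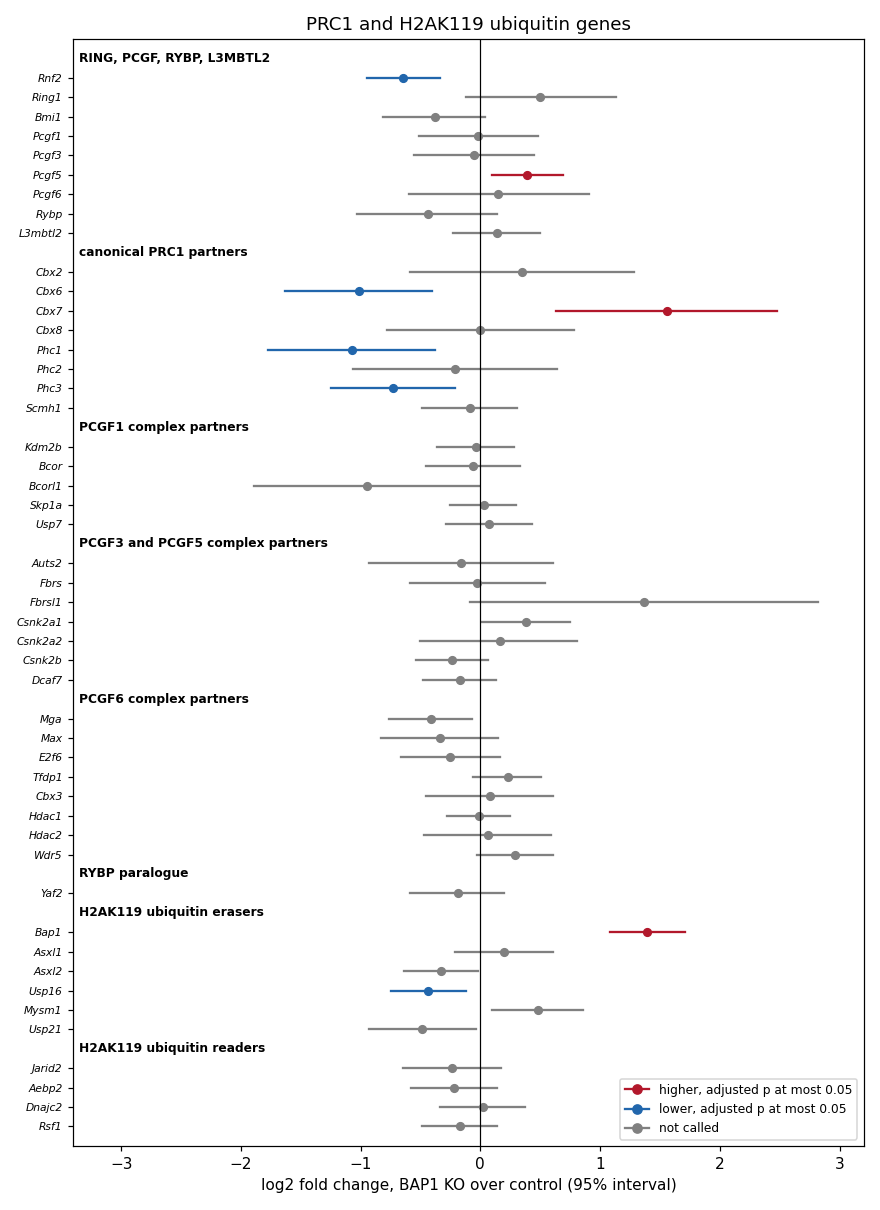
Log2 fold change of libraries labelled BAP1 KO over control (x) with its 95% interval from limma for the 9 tested RING, PCGF, RYBP and L3MBTL2 genes and for partner, eraser and reader genes, grouped by complex, with 1 canonical partner that was not called left undrawn (blue: lower, red: higher, grey: not called). In this fit, made without the GC and length correction, calls fall on Rnf2 and Pcgf5, on 4 canonical partners and on 2 erasers. None falls on the partners of the variant complexes.

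Genes that these complexes are known to hold silent were counted as well. Of 16 germ cell genes that the PCGF6 complex silences in mouse embryonic stem cells or somatic tissues, 7 had no read in any library and 3 passed the minimum for a test. Of these Stag3, a meiotic cohesin subunit, was called higher, at 88.5, 106.2 and 121.0 normalized counts in knockout-labelled libraries against 61.3, 44.9 and 51.7 in control libraries. Its log2 fold change was 0.99 (limma adjusted p = 0.0337), and the call was lost without any 1 library except knockout-labelled replicate 1 (0.0529 to 0.111). The call was also lost with replicate number as a block (limma adjusted p = 0.0572) and with no minimum beyond 1 read (0.0606). This 1 call is 33.3% of the 3 tested genes of the list, against 11.8% of all tested genes called higher. Sycp3 and Zcwpw1, the other tested genes of the list, were not called and are named after their values were seen. Of 10 textbook targets of canonical PRC1, Cdkn2a and Cdkn2b, the cell cycle inhibitor genes that BMI1 represses in stem cells, and Hoxa11 had no read in any library. Of the 4 tested, Hoxa7, Hoxa9 and Ebf1 were called lower in knockout-labelled libraries, with log2 fold changes of -2.23, -2.63 and -4.75 (limma adjusted p = 0.00265, 0.000199 and 0.000882). That is 75% of the tested genes of the list, against 15.0% of all tested genes called lower. Like all lists here, it was chosen with earlier results of these data known, so the contrast is not a test of these targets. The part of the cell type shifts above in these differences was not tested. Hoxa10, the other tested gene of the list, also named after its values were seen, was not called (-1.70, adjusted p = 0.242). Ebf1 is also one of the B lymphoid markers above.

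The genes most like Rnf2 and Ring1 over the 6 libraries were found by the root mean square difference of log2 values, each gene centred on its own mean, among 10086 genes with a mean of at least 100. Closest to Rnf2 were Nap1l1, a histone chaperone (0.0392 in log2), Zfp638 (0.0477) and Dglucy (0.0499), all lowest in knockout-labelled replicate 2. Nap1l1, for example, stood at 3371, 2515 and 2520 against 3920, 4331 and 4606 normalized counts. Among the 3 closest to Ring1 were the phosphatase gene Ptprs (0.131) and the ion channel gene Tpcn2 (0.139), both of which were highest in knockout-labelled replicate 2 and lowest in control replicate 2. Because all these genes were picked for likeness over the same 6 libraries, shared highest or lowest libraries follow from the choice and are not a separate result.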

How the data were processed

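RNA was sequenced from sorted GMPs in 6 libraries (SMARTer amplification and an Ion Total RNA-Seq kit, per the labels' protocols). Builds mm9 and NCBIM37, and the tools HTSeq, DESeq2, STAR, Picard and BWA (0.7.5a), stand in the submitters' processing notes with no role or order. The deposited signal is gene counts divided by 1 size factor per library: every value was a whole multiple of a library's unit within 0.01, so reads were recovered. The 5 rows that name no gene were left out. Between 22.9 and 25.2% of the reads fell in genes. PCR reads without molecular identifiers are not independent molecules.

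The test was limma 3.58.1 (R 4.3.3) with an intensity trend on log2(value + 1), group as the only term, genes with a mean of at least 10, and Benjamini-Hochberg adjustment over 14391 genes. Fold changes are on that scale and understate the change of low genes. Recovered reads were also tested with edgeR 4.0.16, which called 1686 genes higher and 2067 lower, and DESeq2 1.42.0, which called 1999 and 2283. GC content and exon lengths came from GENCODE M21 (GRCm38), matched by gene ID for 95.9% of tested genes. The GC and length correction was a loess fit per library on GC content and log2 length of the longest transcript together. With it 2593 genes were called higher and 1918 lower, and the lower share of calls was 42.5%, against 56.1% in the uncorrected fit. Pairs of genes were compared by exact permutation, two-sided. Scripts were tested on simulated data.

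The 10 genes and all lists were chosen with earlier results of these data known. From the other lists the called genes and the gene of lowest p were named, and for Rnf2 and Ring1 the 3 nearest profiles, except for genes that are not reported here. Same-numbered libraries had correlations of deviations of -0.10, 0.04 and -0.06, so replicate numbers were not used as pairs. Replicates differed by far more than sampling noise, and more so in the knockout-labelled group. The chi-square of read counts per gene was 46.1 to 56 between knockout-labelled libraries and 14.1 to 19.3 between control libraries. The limma fit used 1 variance per gene for both groups.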

Additional observations from a re-analysis of the deposited data

How the results depend on the processing

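Pcgf5 was the 1 gene of the 10 called higher, and that count was 0 with a pseudocount of 0.25 and with no minimum beyond 1 read, and 0 to 1 when 1 library was left out. Rnf2 was the 1 called lower, and that count was 0 after the GC and length correction and after that correction with the replicate block. Over the 40 other PRC1 and H2AK119 genes, the count called higher was 2, against 4 with DESeq2, 7 after the GC and length correction, 7 with that correction and the block, and 1 to 3 without 1 library. The count called lower was 4, against 2 with no minimum beyond 1 read and 0 to 3 without 1 library. Over all genes, leaving out 1 library gave 1032 to 1791 called higher and 1372 to 2324 called lower, and the correction gave 2593 called higher. None of Pcgf1, Pcgf3, Pcgf6 and L3mbtl2 was called, and their log2 fold changes took either sign: without 1 library they ranged from -0.11 to 0.06, from -0.17 to 0.05, from -0.28 to 0.40 and from -0.02 to 0.26 in that order, and after the GC and length correction, with or without the block, they were -0.04, 0.22, 0.47 and 0.07. The Pcgf1 to Pcgf6 difference in log2 ratio was -0.17, ranged from -0.51 to 0.32 without 1 library, and turned in sign without knockout-labelled replicate 1 (0.02) or control replicate 1 (0.32). Replicate numbers did not pair the libraries, and not every library correlated best with its own number. With the replicate block, 1550 genes were called higher and 2014 lower, and 0 of the 10 genes were called higher (Pcgf5, limma adjusted p = 0.0705). The cause of these shifts was not tested. Lengths of the longest transcript were an alternative chosen after seeing the data. The 2 to 12 reads of Pcgf2 per library limit what can be said of it.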
